A study of Mus musculus with 12 samples.

Results

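Simple epithelium is a sheet of polarised cells, a single layer deep, that lines organs and covers the early embryo. The 9 genes described here, Krt7, Krt8, Krt18, Krt19, Epcam, Cldn6, Cldn7, Grhl2 and Esrp1, code for its keratin filaments, its junction and adhesion proteins and regulators of both. They were chosen by name: every probe set whose only gene symbol in the platform's annotation was one of the 9 was taken, in all groups of samples. The rule gave 15 probe sets of the 45037 tested, for 9 of the 18193 genes named on the array. Krt8 has 3 probe sets, Epcam 2 and Grhl2 4, and each other gene has 1.

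Keratin filaments are built from pairs of a type II and a type I chain. Krt8 (type II) and Krt18 (type I) are the first keratin pair made in the mouse embryo, and Krt7 (type II) and Krt19 (type I) join them in many simple epithelia. Cldn6 and Cldn7 are claudins, membrane proteins that seal the tight junction between neighbouring cells, and Epcam is an adhesion protein of the cell surface that is known to bind claudin-7. Grhl2, a grainyhead-like transcription factor, activates junction genes such as Cdh1 in mouse epithelia, and Esrp1 is a splicing regulator that selects epithelial exons. Undifferentiated mouse embryonic stem (ES) cells are themselves epithelial in form and make Epcam and E-cadherin, whereas neural differentiation is known to replace E-cadherin by N-cadherin.

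Mouse ES cells were differentiated towards neural cells as a monolayer in N2B27, a serum-free medium, and RNA was measured on 12 Affymetrix arrays in 6 groups of 2. In the rtTA-Dmrt5 line, doxycycline (Dox) is meant to act on the activator rtTA and so induce a transgene of Dmrt5; the parental rtTA line carries the activator and, by its name, no such transgene. The groups were rtTA-Dmrt5 at day 7 with and without Dox, rtTA-Dmrt5 at day 9 with and without Dox, and parental rtTA at day 7 with and without Dox, with Dox given from day 5. Parental rtTA has no day 9 arrays here, so the effect of Dox alone was measured at day 7 but not at day 9, and the sources used here do not say whether rtTA-Dmrt5 is 1 clone or whether replicates were separate cultures. P-values therefore measure the spread between these samples, which may be technical.

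Each deposited value is a log2 value from which the probe set's median over the 12 arrays has been taken away, so it gives a difference between arrays and no level. Changes are differences of group means on this log2 scale ± standard error (SE) from limma, n = 2 arrays per group, with Benjamini-Hochberg adjustment over all 45037 probe sets. A probe set was called higher or lower at an adjusted p under 0.05. The number of arrays limits the precision. In RNA from whole cultures, a change in the share of cells of a type and a change in the RNA per cell cannot be told apart.

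The gene of the transgene was read first. Dmrta2, also called Dmrt5, codes for a transcription factor made in the developing cortex. Its 1 probe set had lower values under the +Dox label in rtTA-Dmrt5 cells. At day 7 the rtTA-Dmrt5 arrays labelled +Dox were at -0.14 and -0.95, against 1.91 and 1.85 in those labelled -Dox. At day 9 the arrays labelled +Dox were at -1.07 and -1.92, against 1.07 and 1.16 in those labelled -Dox. The sources used here do not say which stretch of the transcript the probe set reads. The parental arrays were at 0.41 and -0.28 with the +Dox label, against -0.22 and 0.14 with the -Dox label. The rtTA-Dmrt5 arrays labelled -Dox thus stood above the parental line, and all but 1 of those labelled +Dox stood below it. Whether the Dox labels of rtTA-Dmrt5 were exchanged was not tested. Groups are called by their labels, every direction of a Dox response below rests on those labels, and an exchange would turn its sign. Hybridisation spike-ins are added in equal amounts to every array. On them, every array labelled +Dox lay below every array labelled -Dox, in both lines and at both days. The day 9 arrays labelled +Dox averaged -0.60 ± 0.07, against 0.07 ± 0.10 in those labelled -Dox (SD, n = 2 each). At day 7, rtTA-Dmrt5 was at -0.16 ± 0.20 with the +Dox label, against 0.13 ± 0.05 with the -Dox label. Parental rtTA was at -0.13 ± 0.11 with the +Dox label, against 0.12 ± 0.07 with the -Dox label (SD, n = 2 each). The 3′ minus 5′ difference of the Actb control probes was 0.21 ± 0.02 in the day 9 arrays labelled +Dox, against -0.02 ± 0.04 in those labelled -Dox (SD, n = 2 each). The part of these differences in the Dox responses at either day, and in the changes between days, was not tested. Values for genes outside the 9 are those of their called probe sets, and such a gene counts as called where at least 1 of its probe sets passed.

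The spacing of the deposited numbers shows roughly how bright a probe set was. By this reading the median log2 level of 8 of the 15 probe sets was 8 or more, a class that holds 20.0% of all probe sets: those of Krt8, Krt18, Krt19, Cldn6 and Cldn7 and 1416579_a_at of Epcam. Krt7, Esrp1, 1447899_x_at of Epcam and 1427046_at of Grhl2 lay between 4 and 8. The other 3 Grhl2 probe sets lay between 2 and 4, the class of dim probe sets that holds 34.9% of the array. Their standard deviations (SD) over the 12 arrays were 0.20 to 0.34, against 0.94 for 1427046_at. What is said of Grhl2 below therefore rests on that probe set unless stated, and the dim ones are given apart. A probe set ending in _x_at holds probes that can match other transcripts, and the 2 such probe sets of Krt8 had a Pearson correlation of 0.994 and 0.997 with 1420647_a_at over the 12 arrays. Neural progenitors, the cells the culture is meant to give, are marked by Sox2, Sox3 and Fabp7, among others, and these too lay in the class of 8 or more. Other progenitor markers were mixed. Sox1, Sox9 and Prom1 had a probe set in that class, and Notch1 and Pax6 had probe sets both there and between 4 and 8. Hes5 and Msi1 had a probe set between 4 and 8.

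**Figure D1:**
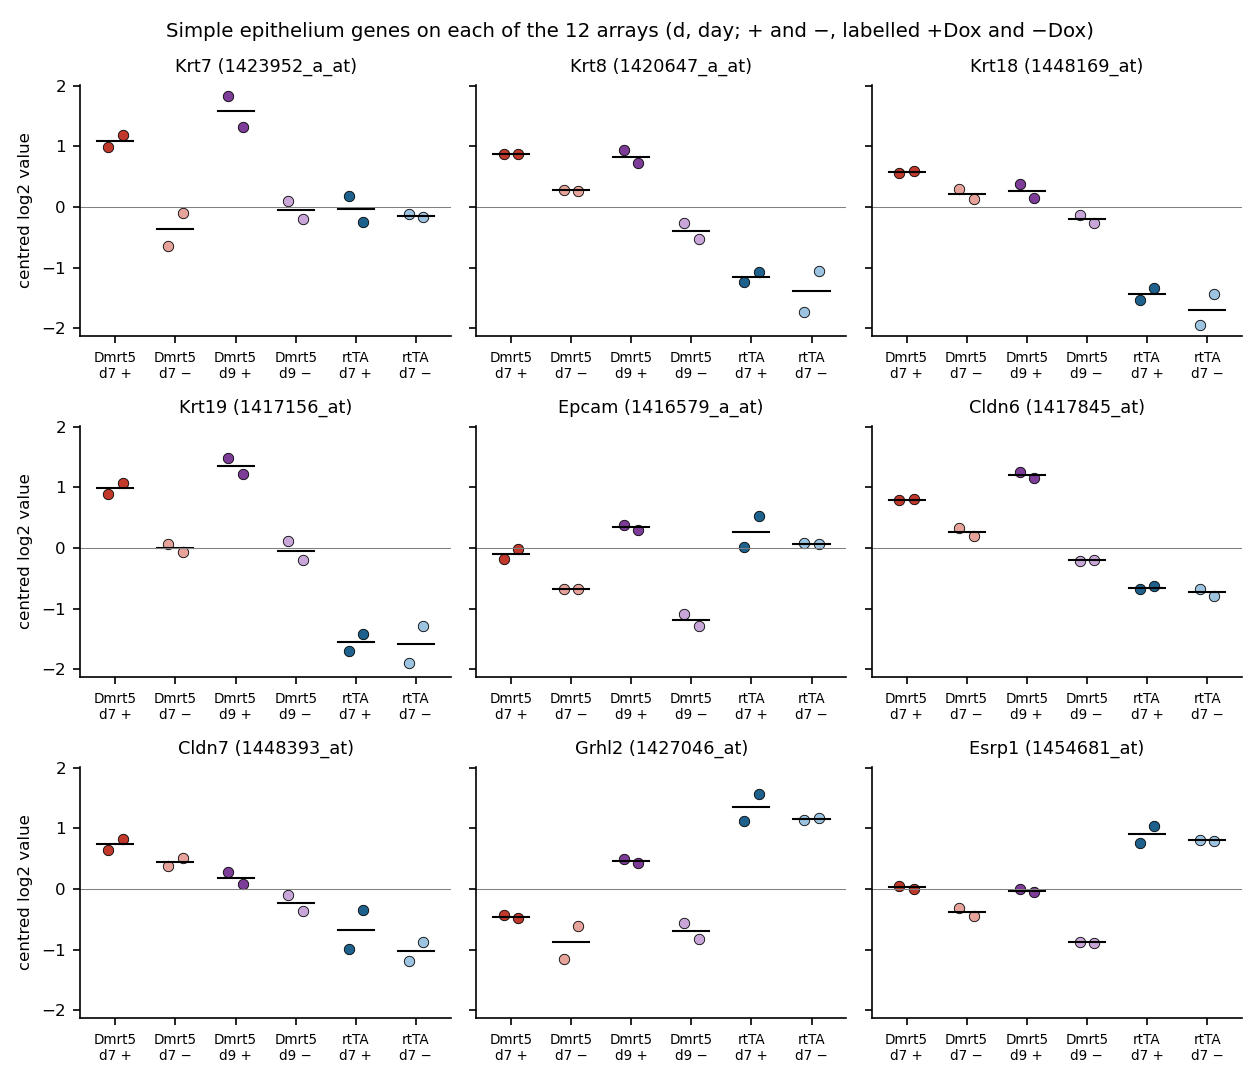
Centred log2 value (vertical axis, the difference from the probe set's median over 12 arrays) of 1 probe set per gene on each array, by line, day and Dox label; dots are arrays and lines are group means of 2. Krt8, Krt18, Krt19, Cldn6 and Cldn7 have lower group means in both parental rtTA groups than in every rtTA-Dmrt5 group, Grhl2 and Esrp1 lie highest in the parental groups, and Krt7 stands high in the 4 rtTA-Dmrt5 arrays labelled +Dox.

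Across the 6 groups the genes fell into 3 patterns. Krt8, Krt18, Krt19, Cldn6 and Cldn7 had their lowest values in the parental rtTA arrays and their highest in rtTA-Dmrt5 arrays labelled +Dox, except that 1 parental array of Cldn7, at -0.34, lay just above the lower rtTA-Dmrt5 day 9 array labelled -Dox, at -0.36. Not every +Dox array of rtTA-Dmrt5 lay above every -Dox array in this pattern. Cldn7 was at 0.28 and 0.09 at day 9 with the +Dox label, against 0.38 and 0.51 at day 7 with the -Dox label. For Krt18 these arrays overlapped, at 0.38 and 0.15, against 0.29 and 0.14. Krt19 was the clearest example of the first pattern. It was at 0.90 and 1.07 in rtTA-Dmrt5 day 7 arrays labelled +Dox, against 0.06 and -0.06 in those labelled -Dox. At day 9 it was at 1.49 and 1.23 with the +Dox label, against 0.12 and -0.20 with the -Dox label. In the parental line it was at -1.69 and -1.41 with the +Dox label, against -1.89 and -1.28 with the -Dox label. The order of its group means was thus day 9 +Dox, day 7 +Dox, both rtTA-Dmrt5 -Dox groups, and both parental groups, and the groups within each of the last 2 pairs overlapped. The 2 +Dox groups did not overlap, and their difference of 0.37 ± 0.20 did not pass (adjusted p = 0.306).

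Grhl2 (1427046_at) and Esrp1 had the second pattern, with their highest values in the parental line. Grhl2 was at -0.44 and -0.48 in rtTA-Dmrt5 day 7 arrays labelled +Dox, against -1.15 and -0.61 in those labelled -Dox. At day 9 it was at 0.49 and 0.44 with the +Dox label, against -0.55 and -0.83 with the -Dox label. The parental arrays lay above all of these, at 1.12 and 1.57 with the +Dox label, against 1.14 and 1.18 with the -Dox label. Epcam (1416579_a_at) lay between both patterns: it was lowest in the rtTA-Dmrt5 arrays labelled -Dox, and its parental arrays, at 0.02 to 0.52, overlapped the day 9 arrays labelled +Dox, at 0.39 and 0.30. Krt7 had the third pattern, with no separation of the lines among arrays labelled -Dox and high values in rtTA-Dmrt5 arrays labelled +Dox.

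As a description over the 12 arrays, which are 6 groups of 2 and so mostly carry differences between groups, the Pearson correlation of the 3 Krt8 probe sets with Krt18, its filament partner, was 0.954 to 0.969. Krt18 and Cldn7 had a correlation of 0.946, and Grhl2 (1427046_at) and Esrp1 of 0.890. Krt18 and Grhl2 ran opposite ways, at -0.783. Krt7 followed Cldn6 more closely (0.797) than Krt18 (0.516). Krt8 and Krt18 lie beside each other on chromosome 15 in the RefSeq annotation, with 2 predicted genes (Gm36026 and Gm41404) between them, and Krt7 lies on the same chromosome. Cldn6 lies on chromosome 17 between Tnfrsf12a, a receptor of the tumour necrosis factor family, and the claudin gene Cldn9.

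Since Krt8, Krt18 and Cldn6 had similar profiles over the arrays and Krt7 did not share their difference between lines in arrays labelled -Dox, the stretches at their starts are shown side by side. Each holds the 250 bases before and the 50 bases after the RefSeq start of the gene in mouse build GRCm38.p6, written 5′ to 3′ on the gene's strand: chr15:101412153-101412452 (plus strand) for Krt7, chr15:102004293-102004592 (minus strand) for Krt8, chr15:102027966-102028265 (plus strand) for Krt18 and chr17:23679115-23679414 (plus strand) for Cldn6. Capitals mark matches, on either strand, to CACCTG (an E-box form bound by Snail and Zeb repressors), GGGCGG (bound by Sp factors), GCCNNNGGC (bound by AP-2 factors such as Tfap2a and Tfap2c) and AACCGGTT (bound by grainyhead-like factors).
Krt7: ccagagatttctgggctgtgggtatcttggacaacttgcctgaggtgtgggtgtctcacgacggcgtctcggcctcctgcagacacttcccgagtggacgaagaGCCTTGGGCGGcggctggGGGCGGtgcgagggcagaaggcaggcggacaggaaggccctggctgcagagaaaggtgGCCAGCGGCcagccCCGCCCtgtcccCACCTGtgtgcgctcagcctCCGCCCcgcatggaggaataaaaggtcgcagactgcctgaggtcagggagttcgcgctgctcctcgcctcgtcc
Krt8: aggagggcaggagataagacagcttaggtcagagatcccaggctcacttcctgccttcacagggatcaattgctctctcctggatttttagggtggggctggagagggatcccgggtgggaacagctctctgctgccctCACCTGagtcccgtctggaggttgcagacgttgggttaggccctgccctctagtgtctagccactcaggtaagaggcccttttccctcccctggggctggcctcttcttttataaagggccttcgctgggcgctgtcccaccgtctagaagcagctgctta
Krt18: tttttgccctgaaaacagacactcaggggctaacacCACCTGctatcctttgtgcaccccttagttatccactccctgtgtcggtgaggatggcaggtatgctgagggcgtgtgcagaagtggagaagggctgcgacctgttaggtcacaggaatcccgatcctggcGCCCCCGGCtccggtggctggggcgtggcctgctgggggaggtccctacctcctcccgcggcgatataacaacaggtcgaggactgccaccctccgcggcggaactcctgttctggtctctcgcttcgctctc
Cldn6: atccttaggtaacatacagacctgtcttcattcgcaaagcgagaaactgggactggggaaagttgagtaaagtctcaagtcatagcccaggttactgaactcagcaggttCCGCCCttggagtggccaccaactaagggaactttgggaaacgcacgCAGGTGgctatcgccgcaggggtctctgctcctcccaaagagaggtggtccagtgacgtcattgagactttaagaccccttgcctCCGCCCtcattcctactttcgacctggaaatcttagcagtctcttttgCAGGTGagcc

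The E-box letters were found once each in Krt7, Krt8 and Krt18 and at 2 places in Cldn6, and 20.2% of all 32851 such windows in the table hold them. GGGCGG was found at 4 places in Krt7, at 2 in Cldn6 and in neither Krt8 nor Krt18 (35.7% of all windows). GCCNNNGGC was found at 2 places in Krt7, of which 1 overlaps a GGGCGG match, and at 1 in Krt18 (16.6% of all windows). AACCGGTT was found in none of the 7 windows that the table holds for 6 of the 9 genes; 0.146% of all windows hold it. The Krt7 window was the richest of the 4 in G and C, at 66.3%, with 21 CpG sites, against a median of 52.7% and 7 sites over all windows. Krt8 had 58.0% and 6 sites, Krt18 61.3% and 17, and Cldn6 52.3% and 10. A match is a description of letters and not a bound site. Krt19, Grhl2 and Esrp1 are named without a sequence.

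At day 7, after Dox from day 5, Krt7, Krt19 and Cldn6 rose in the rtTA-Dmrt5 arrays labelled +Dox, and no member fell. The count was 3 of 15 probe sets higher and 0 lower, beside 1.26% higher and 1.79% lower among all probe sets. Krt7 was at 0.99 and 1.18 in arrays labelled +Dox, against -0.64 and -0.10 in those labelled -Dox, a rise of 1.45 ± 0.23, or 2.74-fold (adjusted p = 0.00737). Krt19 rose by 0.98 ± 0.20, or 1.98-fold (adjusted p = 0.0307). Cldn6 was at 0.79 and 0.81 with the +Dox label, against 0.34 and 0.19 with the -Dox label, a rise of 0.54 ± 0.10 (adjusted p = 0.0219). These calls were not stable when an array was left out, which leaves 1 array in a group and fewer degrees of freedom. Those of Krt19 and Cldn6 were lost when any 1 of the 4 arrays was left out (adjusted p 0.106 to 0.206 for Krt19 and 0.068 to 0.187 for Cldn6), and that of Krt7 without the first -Dox or the second +Dox array (adjusted p = 0.0654 and 0.0776).

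The other 12 probe sets did not pass at day 7, 7 of them with an unadjusted p under 0.05. Their values for Krt8 were 0.58 to 0.66 (adjusted p 0.0763 to 0.171), with +Dox arrays at 0.80 to 1.03, against 0.21 to 0.33 in the -Dox arrays. Krt18, its partner, differed by 0.37 ± 0.17 (adjusted p = 0.341). For the junction genes the differences were 0.57 ± 0.16 and 0.47 ± 0.20 for the Epcam probe sets (adjusted p = 0.092 and 0.295) and 0.29 ± 0.21 for Cldn7 (adjusted p = 0.581). Among the regulators, Grhl2 (1427046_at) differed by 0.42 ± 0.19 (adjusted p = 0.335) and Esrp1 by 0.41 ± 0.11 (adjusted p = 0.102). The dim Grhl2 probe set 1452643_at went the other way, at -0.65 ± 0.20 (adjusted p = 0.143). The median difference of the 15 probe sets was 0.47, beside 0.01 over all probe sets, and 14 of 15 were positive.

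By day 9, 7 of the 9 genes had risen under the +Dox label in rtTA-Dmrt5 cells and none had fallen. Of the probe sets, 10 of 15 were called higher and 0 lower, beside 10.3% higher and 7.95% lower among all probe sets. The median difference was 1.06 over the 15 probe sets, and -0.02 over all. The keratins Krt7, Krt8 and Krt19, the junction genes Epcam and Cldn6 and the regulators Grhl2 and Esrp1 passed; Krt18 and Cldn7 did not.

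Krt7 was at 1.83 and 1.32 in day 9 arrays labelled +Dox, against 0.10 and -0.19 in those labelled -Dox, a rise of 1.62 ± 0.23, or 3.08-fold (adjusted p = 0.00141). Krt8 was at 0.94 and 0.72 on 1420647_a_at with the +Dox label, against -0.26 and -0.53 with the -Dox label, a rise of 1.22 ± 0.20 (adjusted p = 0.00275), and its other probe sets rose by 1.29 and 1.06. Krt19 rose by 1.40 ± 0.20, or 2.64-fold (adjusted p = 0.00166). In each of these keratins the +Dox arrays lay above both -Dox arrays. Krt18 did so too, at 0.38 and 0.15 with the +Dox label, against -0.14 and -0.26 with the -Dox label, but its difference of 0.46 ± 0.17 missed the threshold (adjusted p = 0.0846). The filament partners Krt8 and Krt18 thus differed by unequal amounts; the contrast between both genes was not tested.

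Cldn6 had the smallest adjusted p of the 15 probe sets. It was at 1.25 and 1.15 in day 9 arrays labelled +Dox, against -0.21 and -0.19 in those labelled -Dox, a rise of 1.40 ± 0.10, or 2.65-fold (adjusted p = 5.08e-05). Epcam on 1416579_a_at was at 0.39 and 0.30 with the +Dox label, against -1.09 and -1.28 with the -Dox label, a rise of 1.53 ± 0.16, or 2.89-fold (adjusted p = 0.000304). Its _x_at probe set rose by 0.90 ± 0.20 (adjusted p = 0.0122), a call that was lost without the first +Dox or the second -Dox array (adjusted p = 0.0785 and 0.0763). Cldn7, whose product Epcam binds, differed by 0.41 ± 0.21 (adjusted p = 0.203; 95% interval -0.05 to 0.87). The 2 claudins of the set therefore stood apart in this comparison by call, although their difference was not itself tested.

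Of the regulators, Grhl2 (1427046_at) rose by 1.15 ± 0.19, or 2.22-fold (adjusted p = 0.00322). Its dim probe sets differed by -0.04, -0.10 and -0.41 (adjusted p 0.197 to 0.928), so the rise was not seen on every probe set of the gene. As a mean over all 4 probe sets, in a fit by gene, Grhl2 differed by 0.15 (adjusted p = 0.373). Esrp1 was at -0.004 and -0.04 in day 9 arrays labelled +Dox, against -0.87 and -0.89 in those labelled -Dox, a rise of 0.85 ± 0.11, or 1.81-fold (adjusted p = 0.00115).

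**Figure D2:**
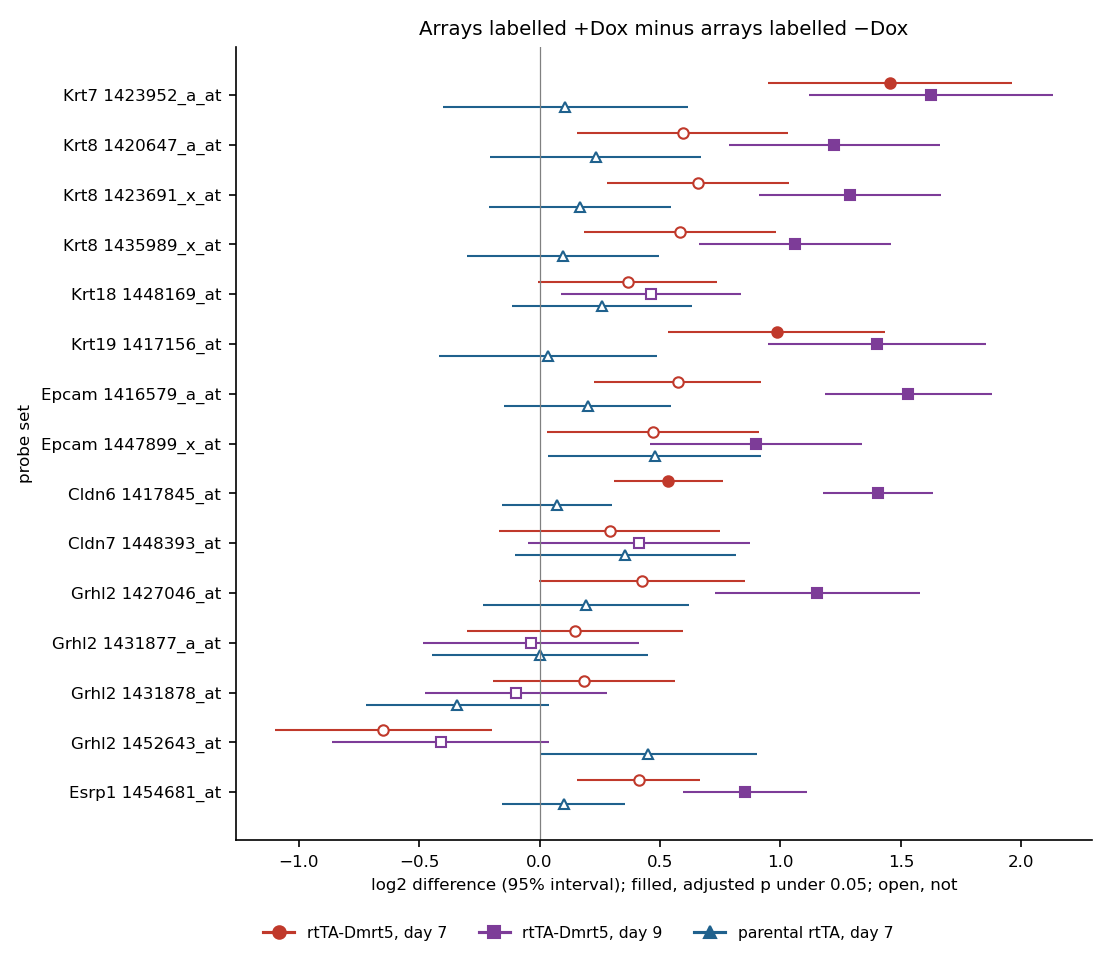
Difference between arrays labelled +Dox and arrays labelled -Dox for each of the 15 probe sets (log2, horizontal axis; points with 95% intervals from limma, 2 arrays a group), in rtTA-Dmrt5 at day 7 and day 9 and in parental rtTA at day 7; filled points passed an adjusted p of 0.05. The filled points are 3 at day 7 and 10 at day 9, none in the parental line, and all lie right of 0.

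In parental rtTA cells at day 7 the same comparison gave no call among the members. The count was 0 of 15, beside 0.00% higher and 0.00% lower among all probe sets in limma, with 2323 of all probe sets and 2 of the 15 at an unadjusted p under 0.05. Krt7 was at 0.19 and -0.25 in parental arrays labelled +Dox, against -0.11 and -0.17 in those labelled -Dox, a difference of 0.11 ± 0.23 (95% interval -0.40 to 0.62). Krt19 differed by 0.03 ± 0.20 and Cldn6 by 0.07 ± 0.10. The 2 probe sets with an unadjusted p under 0.05 were the Epcam _x_at probe set (0.48 ± 0.20) and the dim Grhl2 probe set 1452643_at (0.45 ± 0.20), both with an adjusted p of 0.947.

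The Dox responses of both lines at day 7 were then set against each other in 1 contrast. None of the 15 probe sets passed (0 higher and 0 lower), beside 1.04% of all probe sets called in either direction, and 4 of the 15 had an unadjusted p under 0.05. The response of rtTA-Dmrt5 exceeded that of the parental line by 1.35 ± 0.32 for Krt7 (adjusted p = 0.101), by 0.95 ± 0.29 for Krt19 (adjusted p = 0.201) and by 0.46 ± 0.14 for Cldn6 (adjusted p = 0.22). The fourth was the dim Grhl2 probe set 1452643_at, at -1.10 ± 0.29 (adjusted p = 0.131). At day 7 the members' Dox responses were therefore not shown to differ between the lines. Cldn9, the claudin gene next to Cldn6, did differ: its response in rtTA-Dmrt5 exceeded that in the parental line by 2.57 ± 0.25 (adjusted p = 0.00188). Its probe set was dim, with a median log2 level of 2 to 4.

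Between day 7 and day 9, 2 of the 15 probe sets changed under each Dox label, in opposite directions. In arrays labelled -Dox, Cldn6 and Esrp1 fell and no member rose (2 of 15 probe sets lower, beside 3.37% of all probe sets, and 0 higher, beside 4.29%). Cldn6 was at -0.21 and -0.19 at day 9, against 0.34 and 0.19 at day 7, a change of -0.47 ± 0.10 (adjusted p = 0.0214). Esrp1 changed by -0.50 ± 0.11 (adjusted p = 0.0274). A further 7 probe sets had an unadjusted p under 0.05, all at lower values: the 3 of Krt8 (-0.67 to -0.53), both of Epcam (-0.51 and -0.54), Cldn7 (-0.68) and Krt18 (-0.42), with adjusted p of 0.0708 to 0.179. The median of the 15 was -0.47, beside -0.01 over all probe sets. Krt7 and Krt19 differed by 0.32 ± 0.23 and -0.04 ± 0.20.

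In arrays labelled +Dox, Cldn6 and Grhl2 were higher at day 9 than at day 7 and no member was lower (2 of 15 higher, beside 5.18% of all probe sets, and 0 lower, beside 3.92%). Grhl2 (1427046_at) was at 0.49 and 0.44 at day 9, against -0.44 and -0.48 at day 7, a rise of 0.92 ± 0.19 (adjusted p = 0.0163). Cldn6 rose by 0.40 ± 0.10 (adjusted p = 0.0382). The Krt8 probe sets differed by -0.05 to 0.05, and Cldn7 by -0.55 ± 0.21 (adjusted p = 0.133). The fit was repeated 19 times with another setting or without 1 array. The call of Cldn6 in arrays labelled +Dox held in 7 of 19 repeats, and its value was 0.05 after quantile normalization; the other 3 calls between days held in 14 of 19 each.

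The test of the difference itself asked whether the Dox response of rtTA-Dmrt5 cells was larger at day 9 than at day 7. It passed for Cldn6, whose response was larger by 0.87 ± 0.14 (adjusted p = 0.0359): 1 of 15 probe sets higher and 0 lower, beside 0.324% and 0.315% of all probe sets. The call held in 5 of 19 repeats, and the value was 0.55 after quantile normalization. The Epcam probe set 1416579_a_at had a response larger by 0.96 ± 0.22 (adjusted p = 0.0938), Grhl2 by 0.73 ± 0.27 (adjusted p = 0.252) and Krt8 by 0.48 to 0.63 (adjusted p 0.261 to 0.42). For Krt7 the difference was 0.17 ± 0.32 (95% interval -0.55 to 0.89) and for Krt18 it was 0.10 ± 0.24. The higher count of calls at day 9 is thus not by itself a measure of larger responses.

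Gene lists moved between the days as well. In arrays labelled -Dox, 6 of 13 adherens junction and desmosome genes and 5 of 20 tight junction and polarity genes were lower at day 9 than at day 7, and none of either list was higher. Of 15 undifferentiated ES cell genes, 10 were higher and 2 lower, and of 13 neuron genes 8 were higher and none lower. Of 17 endoderm genes, 1 was lower and none higher. In arrays labelled +Dox, 3 adherens junction and desmosome genes were higher and 2 lower at day 9, and no tight junction gene was called. There 11 of the 15 ES cell genes were higher and 1 lower, 8 of the 13 neuron genes were higher and none lower, and 2 endoderm genes were higher. With the -Dox label, 10 of 31 adherens junction, 5 of 46 tight junction and 2 of 41 endoderm probe sets were lower, beside 3.37% of all. Higher were 12 of 28 ES cell (3 lower) and 16 of 33 neuron probe sets, beside 4.29%. With the +Dox label, 13 ES cell (2 lower), 14 neuron, 3 adherens junction (2 lower) and 3 endoderm probe sets were higher. All probe sets had 5.18% higher and 3.92% lower there. The part of these lists in the members' changes between days was not tested.

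The lines differed in these genes at day 7, in both directions. Signs of RNA quality differed between the lines too. The 3′ minus 5′ difference of the Actb controls was 0.06 ± 0.01 in rtTA-Dmrt5, against -0.32 ± 0.06 in parental rtTA, in arrays labelled -Dox, and -0.04 ± 0.13 in rtTA-Dmrt5, against -0.22 ± 0.03 in parental rtTA, in arrays labelled +Dox (SD, n = 2 each). For Gapdh it was 0.05 ± 0.01 in rtTA-Dmrt5, against -0.11 ± 0.04 in parental rtTA, in arrays labelled -Dox (SD, n = 2 each). Their part in the differences between lines was not tested. Among arrays labelled -Dox, Krt8, Krt18, Krt19, Cldn6 and Cldn7 were higher in rtTA-Dmrt5 than in parental rtTA, and Epcam, Grhl2 and Esrp1 were lower. That is 7 of 15 probe sets higher, beside 8.72% of all probe sets, and 3 lower, beside 9.95%. Krt18 was at 0.29 and 0.14 in rtTA-Dmrt5, against -1.94 and -1.44 in parental rtTA, a difference of 1.91 ± 0.17, or 3.75-fold (adjusted p = 7.16e-05). Krt8 was higher by 1.47 to 1.66, Krt19 by 1.59 ± 0.20 and Cldn7 by 1.47 ± 0.21 (adjusted p = 0.00112). The first parental array labelled -Dox was the lower of its pair in Krt8, Krt18, Krt19 and Cldn7, for example at -1.72, against -1.05 in the second, on 1420647_a_at of Krt8. Cldn6 was at 0.34 and 0.19 in rtTA-Dmrt5, against -0.67 and -0.79 in parental rtTA, a difference of 0.99 ± 0.10 (adjusted p = 0.000191).

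Among arrays labelled -Dox, Grhl2 (1427046_at) had the largest difference between the lines of the 15 probe sets, at -1.15 and -0.61 in rtTA-Dmrt5, against 1.14 and 1.18 in parental rtTA. It was lower by a log2 difference of -2.04 ± 0.19, 0.244 times the parental value (adjusted p = 0.000114). The dim Grhl2 probe sets differed by -0.23 (1431877_a_at), -0.24 (1431878_at) and, the other way, 0.50 (1452643_at), with adjusted p 0.118 to 0.486. As a mean over all its probe sets, in a fit by gene, Grhl2 differed by -0.50 (adjusted p = 0.00909). Esrp1 was at -0.31 and -0.45 in rtTA-Dmrt5, against 0.81 and 0.80 in parental rtTA, a difference of -1.19 ± 0.11 (adjusted p = 0.000132). On 1416579_a_at Epcam differed by -0.75 ± 0.16 (adjusted p = 0.00878), and on its _x_at probe set by -0.03 ± 0.20 (adjusted p = 0.949). The call of the first was lost without the second rtTA-Dmrt5 or the first parental array (adjusted p = 0.0512 and 0.0551). Krt7 differed by -0.23 ± 0.23 (adjusted p = 0.558).

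Among arrays labelled +Dox the lines differed in the same 2 directions, with 8 of 15 probe sets higher in rtTA-Dmrt5 (beside 7.83% of all probe sets) and 2 lower (beside 6.81%). Krt19 had the largest value, 2.53 ± 0.20 or 5.80-fold (adjusted p = 2.98e-05), and Krt18 differed by 2.01 ± 0.17, Krt8 by 1.96 to 2.02, Cldn6 by 1.45 ± 0.10 and Cldn7 by 1.41 ± 0.21. Krt7 passed here, at 0.99 and 1.18 in rtTA-Dmrt5, against 0.19 and -0.25 in parental rtTA, a difference of 1.12 ± 0.23 (adjusted p = 0.00824), though not without the second +Dox array of either line (adjusted p = 0.0648 and 0.067). Grhl2 (1427046_at) and Esrp1 were lower, by -1.80 ± 0.19 and -0.87 ± 0.11. The dim Grhl2 probe sets differed by -0.09 (1431877_a_at), 0.29 (1431878_at) and -0.60 (1452643_at), with adjusted p 0.0811 to 0.847. As a mean over all its probe sets, in a fit by gene, Grhl2 differed by -0.55 (adjusted p = 0.00596). Epcam on 1416579_a_at differed by -0.37 ± 0.16 (adjusted p = 0.158). This comparison and the 2 Dox responses at day 7 share arrays, and each line is a single line, so what separates the lines besides the transgene cannot be told apart from it.

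**Figure D3:**
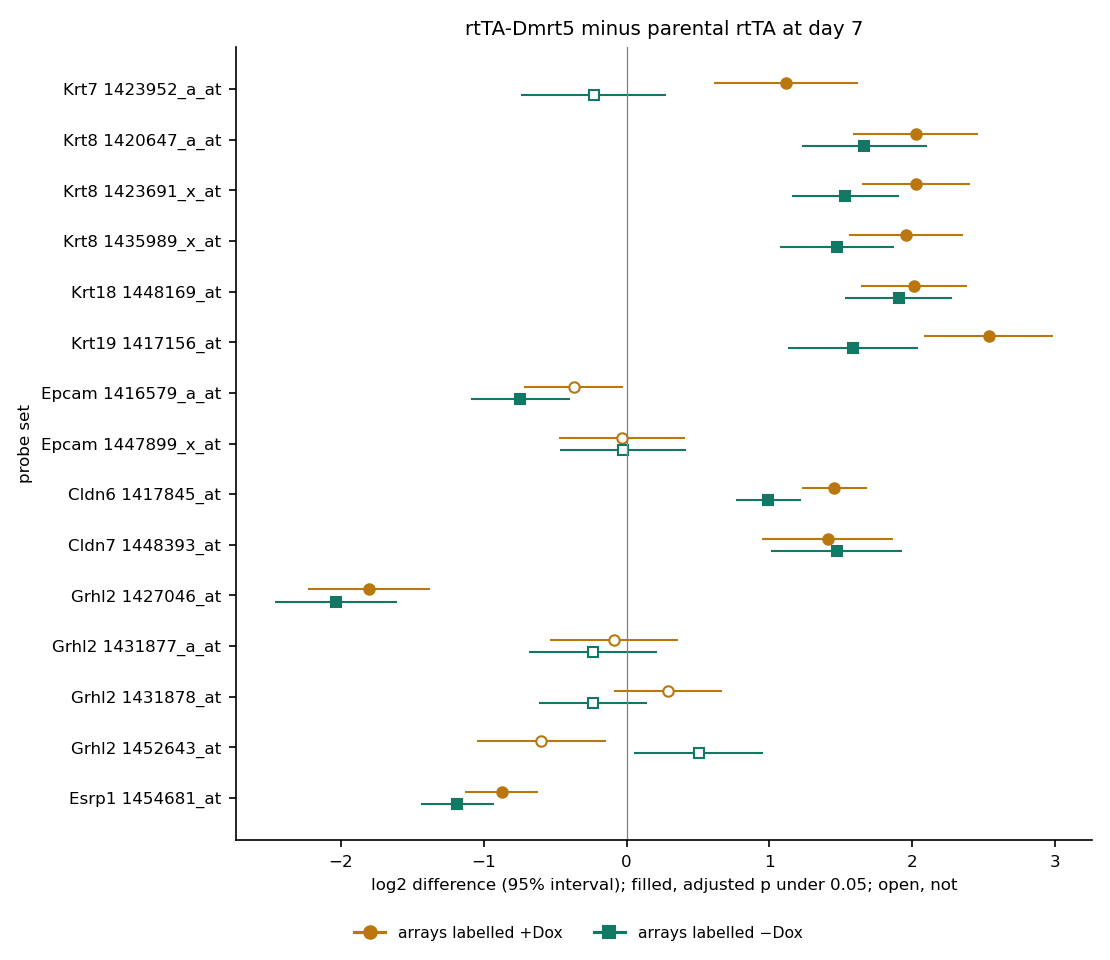
Difference between rtTA-Dmrt5 and parental rtTA at day 7 for each of the 15 probe sets (log2, horizontal axis; points with 95% intervals from limma, 2 arrays a group), in arrays labelled +Dox and -Dox; filled points passed an adjusted p of 0.05. Krt8, Krt18, Krt19, Cldn6 and Cldn7 lie right of 0 under both labels, with Krt19 at 2.53 in arrays labelled +Dox, and Grhl2 (1427046_at) and Esrp1 lie left of 0 under both.

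Other genes of epithelial junctions behaved as follows in the Dox comparisons of rtTA-Dmrt5. Counts of lists are by gene, where 1 called probe set is enough. Counts by probe set are given too, to be read beside the share of all probe sets. That share was 1.26% higher and 1.79% lower at day 7, and 10.3% and 7.95% at day 9. Of 13 adherens junction and desmosome genes, 2 rose at day 7 and none fell; they were Dsp, the desmosomal plaque protein desmoplakin (1.36 ± 0.13 and 1.08 ± 0.15 on 2 probe sets), and the desmosomal cadherin Dsc2 (0.95 ± 0.17). At day 9, 7 of the 13 rose and 1 fell. By probe set, 3 of 31 were higher at day 7, and 12 higher and 1 lower at day 9. Dsp rose by 2.38 ± 0.13 and 2.27 ± 0.15, Dsc2 by 1.54 ± 0.17, the plaque protein Pkp3 by 1.26 ± 0.20 and the desmosomal cadherin Dsg2 by up to 1.19 ± 0.17, while Ctnnd1, the p120 catenin, fell by 0.67 on the log2 scale. Cdh1, which codes for E-cadherin and was picked out after its values were seen, rose by 1.13 ± 0.10 at day 9 (adjusted p = 0.000137). The day 9 response of Dsp and Cdh1 exceeded that at day 7, by 1.19 ± 0.22 and 1.02 ± 0.19 for Dsp and by 0.76 ± 0.14 for Cdh1 (adjusted p 0.0465 to 0.0492).

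Of 20 tight junction and polarity genes besides Cldn6 and Cldn7, 1 rose at day 7 and 12 at day 9, and none fell at either day. The day 7 gene was Cldn9, which rose by 2.73 ± 0.18 (adjusted p = 6.78e-05) on a probe set with a median log2 level of 2 to 4. At day 9 Cldn9 rose by 3.19 ± 0.18, and the tricellular junction gene Marveld2 by 1.61 ± 0.23, its relative Marveld3 by 1.61 ± 0.26 (on a probe set with a level of 2 to 4) and Cgnl1, which codes for a cingulin-like plaque protein, by 1.54 ± 0.16. The median over the list's 46 probe sets was 0.13 at day 7 and 0.27 at day 9. Of these probe sets 1 was higher at day 7 and 15 at day 9, and none was lower. Of 10 genes of epithelial surface proteases, their inhibitors and membrane trafficking, 0 passed at day 7, with a median of 0.45 over 16 probe sets. At day 9, 8 of the 10 genes rose and 1 fell (10 of 16 probe sets higher and 1 lower), with a median of 1.03. The protease Prss8 rose by 1.50 ± 0.19, and the protease inhibitors Spint2 by up to 1.46 ± 0.20 and Spint1 by 1.33 ± 0.17. The motor protein Myo5b rose by up to 1.39 ± 0.16, and the mucin Muc1 fell by 0.50 on the log2 scale.

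Of 11 epithelial transcription and splicing factors, 2 rose at day 7 (3 of 23 probe sets higher and 0 lower). They were Grhl3, a relative of Grhl2 (0.76 ± 0.16), and the AP-2 factor Tfap2c (0.87 ± 0.13 and 0.71 ± 0.10). At day 9, 7 rose and 1 fell (10 of 23 probe sets higher and 3 lower). Grhl3 rose by 1.40 ± 0.16, Esrp2, the relative of Esrp1, by 1.25 ± 0.29 and 0.58 ± 0.11, Tfap2c by 1.11 ± 0.13 and the ETS factor Elf3 by 1.11 ± 0.20, whereas all 3 probe sets of Tfap2a fell, by up to 1.43 on the log2 scale. Of 10 genes of the epithelial-to-mesenchymal transition, Vim and Zeb2 fell at day 7, with differences of -0.45 and -0.63. At day 9 Snai1, Snai2 and Fn1 rose, by 1.18 ± 0.22, 0.91 ± 0.17 and 1.08 ± 0.13, and Vim, the mesenchymal filament protein vimentin, fell by 0.53 on the log2 scale. By probe set, the epithelial-to-mesenchymal list had 0 of 23 higher and 2 lower at day 7, beside 1.26% and 1.79% of all probe sets. At day 9 it had 3 of 23 higher and 1 lower, beside 10.3% and 7.95% of all probe sets. Snai1 and Snai2 code for repressors of E-cadherin, and they were higher at day 9 in the same arrays as Cdh1. RNA of whole cultures does not show whether the same cells made these RNAs, and a link between them was not tested.

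Other keratins and genes of stratified epithelium were read as well. Of 6 other keratin genes (Krt20, Krt23, Krt80, Krt222, Krt4 and Krt13), 0 passed at day 7 and 1 at day 9, Krt222 (0.58 ± 0.15). That is 1 of 10 probe sets higher at day 9, beside 10.3% of all probe sets. Of 13 keratins and basal genes of stratified epithelium, 0 passed at day 7 and 7 rose at day 9. The 4 largest rises were in Trp63, the basal cell factor p63 (1.39 ± 0.24), the laminin chain gene Lamb3 (1.23 ± 0.27), Krt1 (1.15 ± 0.19) and the desmosomal gene Perp (1.04 ± 0.17). The called probe sets of Trp63, Krt1 and Krt222 had a level of 2 to 4. Of the 21 probe sets of the stratified list 7 were higher at day 9 and 0 lower, beside 10.3% and 7.95% of all probe sets. The median of the 21 was 0.28.

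Genes that mark other cells the cultures could hold moved in the same comparisons. Undifferentiated ES cell genes averaged -0.30 and -0.21 in rtTA-Dmrt5 day 7 arrays labelled +Dox, against -0.63 and -0.58 in those labelled -Dox, with 5 of 15 higher. At day 9 they averaged 0.12 and 0.14 with the +Dox label, against -0.33 and -0.31 with the -Dox label, with 9 of 15 higher, among them Tbx3, Zfp42 and Dppa4. Endoderm genes averaged 0.40 and 0.49 at day 7 with the +Dox label, against -0.03 and 0.06 with the -Dox label, with 2 of 17 higher, Foxa2 (1.25 ± 0.20) and Apoa1. At day 9 they averaged 0.50 and 0.74 with the +Dox label, against -0.09 and -0.05 with the -Dox label, with 12 of 17 higher, among them Foxa2 (1.74 ± 0.20), Sox7 (1.64 ± 0.21, on a probe set with a median log2 level of 2 to 4), Dab2 (up to 1.53 ± 0.19) and Afp. Afp rose by 0.68 ± 0.13 on a probe set with a level of 4 to 8 and by 2.16 ± 0.34 on one with a level under 2. By probe set, 6 of 28 of the ES cell list and 4 of 41 of the endoderm list were higher at day 7, beside 1.26% of all. At day 9 these were 13 and 22, beside 10.3%. In none of these comparisons was an ES cell or endoderm gene lower. ES cells and endoderm are both epithelial, and the part of these cells in the members' differences was not tested.

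Neuron genes ran the other way. They averaged -0.85 and -0.73 in day 7 arrays labelled +Dox, against -0.21 and -0.20 in those labelled -Dox, with 10 of 13 lower and 1 higher. At day 9 they averaged -0.29 and -0.22 with the +Dox label, against 0.42 and 0.47 with the -Dox label, with 10 of 13 lower and none higher. Trophoblast genes showed 0 of 9 called at day 7 and 2 higher and 2 lower at day 9. Surface ectoderm and placode genes showed 1 of 12 higher at day 7, and 4 higher and 2 lower at day 9. Of 15 genes of the roof plate, choroid plexus and cortical hem, 2 were higher and 2 lower at day 7, and 4 and 4 at day 9. Of 12 neural progenitor genes, 4 were lower and none higher at day 7, and 3 were lower and 1 higher at day 9. Of 14 mesoderm and mesenchyme genes, 1 was higher and 3 lower at day 7, and 4 were higher and 2 lower at day 9. By probe set at day 7, 16 of 33 of the neuron list were lower and 1 higher. Of 27 neural progenitor probe sets, 5 were lower and 0 higher. Higher and lower were 3 and 3 of 26 roof plate and 1 and 5 of 21 mesoderm probe sets. They were 1 and 0 of 24 surface ectoderm and 0 and 0 of 18 trophoblast probe sets. All probe sets had 1.26% higher and 1.79% lower at day 7. By probe set at day 9, 19 of 33 of the neuron list were lower. Higher and lower were 2 and 3 of 18 trophoblast, 4 and 4 of 24 surface ectoderm, and 5 and 5 of 26 roof plate probe sets. For neural progenitors they were 3 and 5 of 27, and for mesoderm 6 and 3 of 21. All probe sets had 10.3% higher and 7.95% lower at day 9. In parental rtTA no gene of any of these lists was called, beside 0.00% of all probe sets.

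Between the lines, in arrays labelled -Dox, lists of other cells differed in both directions, as the members did. Of 15 ES cell genes 13 were lower in rtTA-Dmrt5 and 1 was higher: Pou5f1 differed by -3.44 ± 0.17 and Dppa4 by -3.25 ± 0.14, against 2.19 ± 0.12 for Tbx3. The list averaged -0.63 and -0.58 in rtTA-Dmrt5, against 0.61 and 0.70 in parental rtTA. Of 17 endoderm genes 10 were higher and 2 lower, with Sox17 at up to 3.76 ± 0.25, Hnf4a at 3.50 ± 0.18, Col4a1 at up to 2.35 ± 0.13 and Gata4 at 2.33 ± 0.21. That list averaged -0.03 and 0.06 in rtTA-Dmrt5, against -0.82 and -0.65 in parental rtTA. Of 15 genes of the roof plate, choroid plexus (itself an epithelium) and hem, 8 were higher and none lower. That list averaged 0.21 and 0.30 in rtTA-Dmrt5, against -0.76 and -0.46 in parental rtTA, and its median difference was 0.61, beside 0.36 for the endoderm list. Of 13 neuron genes 7 were lower and 2 higher. Of 14 mesoderm and mesenchyme genes 6 were lower and 1 higher (6 and 3 of 21 probe sets). Of 12 neural progenitor genes 5 were lower and 2 higher (6 and 3 of 27 probe sets). With only 2 lines, any called gene must be higher in 1 of them, so a shared direction does not link the members to a list. By probe set, 17 of 28 of the ES cell list and 12 of 33 of the neuron list were lower, and 2 of each higher. Of 41 endoderm probe sets 15 were higher and 3 lower, and of 26 roof plate probe sets 12 were higher. All probe sets had 8.72% higher and 9.95% lower. The part of these lists in the result was not tested.

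**Figure D4:**
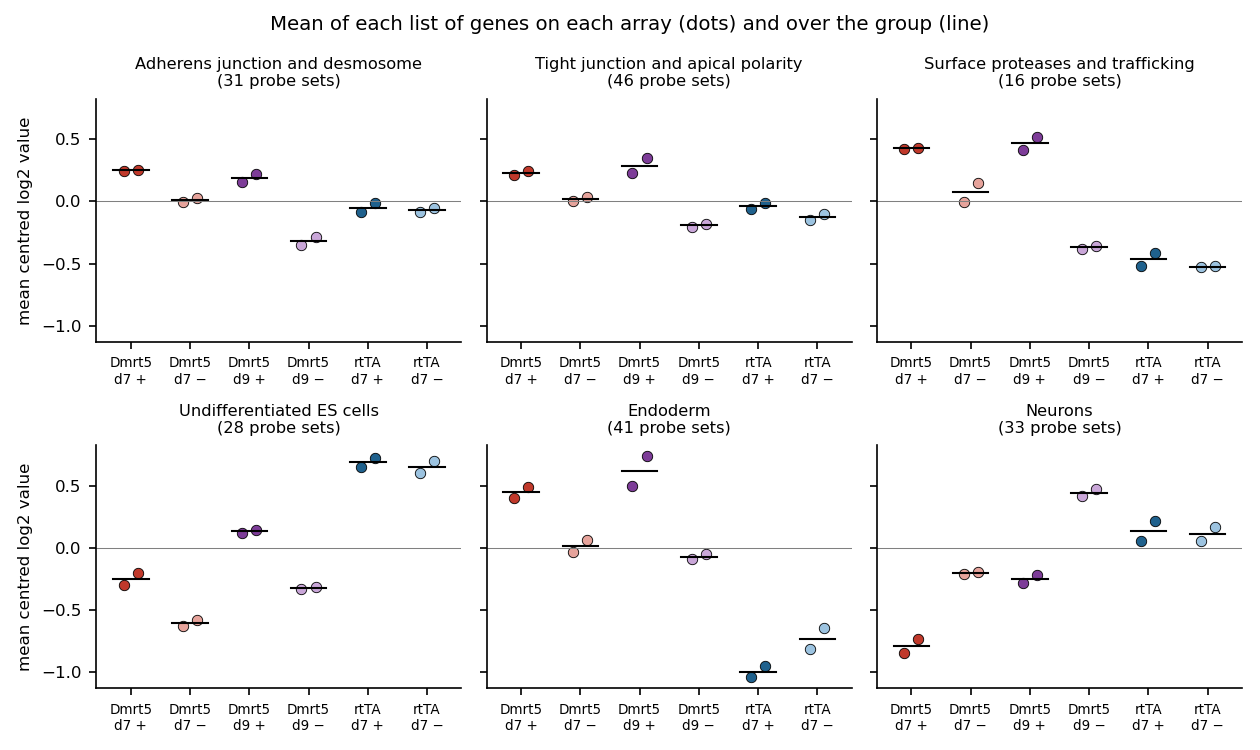
Mean centred log2 value (vertical axis) of the probe sets of 6 gene lists on each array, by line, day and Dox label; dots are arrays and lines are group means of 2. The 3 junction and protease lists lie higher in rtTA-Dmrt5 arrays labelled +Dox than in those labelled -Dox at both days, and so do the ES cell and endoderm lists, while neuron genes average -0.85 and -0.73 in day 7 arrays labelled +Dox, against -0.21 and -0.20 in those labelled -Dox.

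Other epithelial genes also differed between the lines in arrays labelled -Dox, in both directions. The tight junction gene Ocln was higher in rtTA-Dmrt5 by 1.32 ± 0.20 and 1.09 ± 0.17, the protease Tmprss2 by up to 3.69 ± 0.17, and the factors Klf5 and Klf4 by 2.78 ± 0.20 and up to 2.29 ± 0.19. Esrp2 was higher by 1.44 ± 0.29 on 1 probe set, and differed by -0.06 ± 0.11 on its other, brighter one (adjusted p = 0.759). Cdh1 was lower by -0.54 ± 0.10, and Rab25, a trafficking protein of epithelia, by -1.68 ± 0.25. Of the 10 epithelial-to-mesenchymal genes 7 were lower in rtTA-Dmrt5 and none higher. By probe set, 8 of 23 were lower, beside 9.95% of all probe sets.

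A mean profile of the 9 genes was made by scaling each member probe set, averaging within each gene and then over genes. It takes in the dim Grhl2 probe sets and pools members that ran opposite ways, such as Krt18 and Grhl2 (1427046_at, correlation -0.783). It was set beside 10501 other probe sets with a single symbol and an SD over the arrays of at least 0.3. Most like this mean was St14, which codes for the epithelial surface protease matriptase, with a Pearson correlation of 0.978 over the 12 arrays. Next came Lrmda (0.975), Smyd2 (0.973), Ugt2b34 (0.972), Kat2a (0.970), Gemin5 (0.968), Fzd9 (0.966) and Trap1a (0.964). For Krt8 on 1420647_a_at the 3 most alike were the polarity gene Patj (0.989), Cuedc1 (0.989) and Esrp2 (0.989), and for its _x_at probe sets they included Cemip and Tnfrsf12a (0.992 on 1 probe set each). These are descriptions of 12 arrays in 6 groups.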

How the data were processed

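The deposited table holds 45101 probe sets on 12 arrays. Per the labels' protocols, a NuGEN Ovation kit turned 5 ng of total RNA into amplified biotin-labelled target. The authors' values were made with RMA, per the submitters' processing notes; its version and a genome build are not given in the sources used here. What they deposited was read as log2 values, since RMA is defined on it and the largest range over the arrays was 7.37. Each probe set is centred on its median over the 12 arrays (0 within 5e-07), which no source used here mentions. A larger value was read as more RNA.

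Names came from the platform's annotation: leaving out 64 control probe sets, 34945 probe sets had 1 gene symbol, 932 several and 9160 none. The gene numbers of 34754 were found in RefSeq's table of GRCm38.p6, and 0 symbols changed. Brightness classes were read from the spacing of the single-precision values, a reading that was right for 98.0% of 20000 simulated probe sets and a class too high for the others.

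All 45037 other probe sets were fitted with limma 3.58.1 in R 4.3.3: a mean per group over the 12 arrays, 9 contrasts, eBayes (6 residual and 3.92 prior degrees of freedom), two-sided tests and Benjamini-Hochberg adjustment within each contrast. The fit was tested on data simulated with the measured spread, for the day 7 Dox response of rtTA-Dmrt5. It called 45 of 100 changes of log2 size 1, 0 of 100 of size 0.5 and 2 of 44837 unchanged probe sets. A difference that did not pass is thus not shown to be absent. Tables were handled with pandas 2.3.3 (Python 3.11.15), and figures drawn with matplotlib 3.10.9. Replicate numbers were not used as pairs in the main fit: the replicate differences of the +Dox and -Dox groups correlated at 0.028, -0.061 and 0.143. Such low values do not show that the samples were unpaired.

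The 9 genes and 15 gene lists were chosen with earlier results of these data known. Every member probe set was tested in every comparison, though not every value is printed. From the lists, up to 4 called genes per direction and comparison may be named. The genes most like the members are those with the highest Pearson correlation over the arrays. Promoter windows are RefSeq's.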

Additional observations from a re-analysis of the deposited data

Results flagged for a closer look

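The Dox response of Cldn6 in rtTA-Dmrt5 cells differed between the days: it was larger at day 9 than at day 7 by 0.87 ± 0.14 on the log2 scale (limma, adjusted p = 0.0359 over all probe sets; adjusted p 0.0178 to 0.173 over 19 repeats). It was drawn out because the difference between the responses was itself tested and passed. The +Dox minus -Dox difference was 1.40 ± 0.10 at day 9, against 0.54 ± 0.10 at day 7. The +Dox arrays were at 1.25 and 1.15 at day 9, against 0.79 and 0.81 at day 7, and the -Dox arrays were at -0.21 and -0.19 at day 9, against 0.34 and 0.19 at day 7. After quantile normalization the difference between the responses was 0.55 (adjusted p = 0.173), and day 9 minus day 7 in the +Dox arrays was 0.05. The hybridisation spike-ins were lowest in the day 9 arrays labelled +Dox (-0.60 ± 0.07, SD, n = 2); their part in the result was not tested.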

How the results depend on the processing

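Each fit was repeated with 7 other settings and without each array in turn. Of 722 repeats of the 38 called member results, all 722 kept their direction and 661 stayed past the threshold; 47 of the 61 lost calls came among the 456 repeats that left out an array. The cause of the changes below was not tested, except that fits on fewer arrays have fewer degrees of freedom.

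Counts of the 15 member probe sets called moved as follows. For the day 7 Dox response (3), they were 5 among probe sets of a median log2 level of at least 4, 7 after quantile normalization, 1 with only the arrays compared, 7 with array weights and 5 genes by their brightest probe set; leaving out an array gave 0 to 4. For the day 9 Dox response (10), leaving out an array gave 9 to 11. The difference between lines (0) had 2 after quantile normalization and 0 to 0 without an array, as had the parental response. The difference between days (1) had 0 after quantile normalization, 0 with only the arrays compared, and 2 genes by their brightest probe set, with 0 to 1 without an array. Day 9 minus day 7 without Dox (2) had 5 at a level of at least 4, 6 after quantile normalization, 0 with only the arrays compared, 6 with array weights and 4 genes by either gene summary, with 0 to 4 without an array. With Dox (2) it had 1 after quantile normalization, with only the arrays compared and with array weights, and 1 gene by the mean of its probe sets, with 0 to 3 without an array. Between the lines (10 each) leaving out an array gave 9 to 11 with Dox and 9 to 10 without.

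With the replicate block the member counts were 2 for the day 7 Dox response, where Cldn6 lost its call (adjusted p = 0.081), 1 for day 9 minus day 7 with Dox and 0 for the difference between days; it changed no other member count by over 1.5 times. The replicate numbers were not shown to pair these samples.

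Over all probe sets, the calls for the day 7 Dox response (1372) were 2557 after quantile normalization, 2666 with array weights and 775 with only the arrays compared. With only the arrays compared they were 3426 of 8230 for day 9, 1491 of 4098 and 1984 of 3447 for day 9 minus day 7 with and without Dox and 72 of 288 for the difference between days. That difference had 633 at a level of at least 4 and 0 with the block, and the difference between lines (468) had 875 after quantile normalization and 225 with the block. Dim probe sets, 2 arrays a group and centred values without raw signals limit what can be seen.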
